A study of Homo sapiens with 3 samples.

Results

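The heat shock chaperones of the cytosol and the mitochondrion were described in the gastric cancer line NCI-N87, an established human line, given siRNA against FOXP4, a forkhead transcription factor. Members were the rows of the TPM table whose symbol stood on a list of 38 chaperone genes, and all 38 were found among 31907 rows. Each had a mean of at least 1 TPM, so all 38 were among the 14429 genes tested. There were 3 poly(A) RNA libraries, all from cells transfected with Lipofectamine 2000. The library of siRNA1 and that of siRNA2, both labelled knockdown, came from cells given different siRNAs against FOXP4. The third library, labelled wild type, was made from cells that received a scrambled siRNA and had no replicate. The labels name no heat or drug treatment and do not say whether the libraries came from separate cultures. A p-value here rests on the spread between the siRNA1 and siRNA2 libraries, to which the lone control adds nothing. For each gene, limma draws this spread toward that of other genes of similar level. That spread mixes differences between the siRNAs with differences between libraries, which may be technical. TPM is a read share corrected for gene length, which here fits the merged length of all exons of a gene. That length can exceed the longest coding transcript by a different factor in each gene, so levels are compared between genes only roughly. Each value below is 1 library.

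Chaperones bind unfolded protein and help it to fold. In the HSP70 cycle, J-domain (HSP40) proteins bring clients and start ATP hydrolysis, and exchange factors then release ADP. Some clients pass from HSP70 through the adaptor STIP1 to HSP90, which finishes kinases and steroid receptors. The CCT ring encloses actin and tubulin, and HSPD1 with its lid HSPE1 encloses proteins imported into mitochondria. HSF1, the main heat shock factor, raises many of these genes under stress by binding inverted GAA repeats called heat shock elements.

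FOXP4 measured 51.6 TPM with siRNA1 and 36.7 TPM with siRNA2, against 93.9 TPM with the scrambled siRNA. That left 55.0% and 39.0% of the scrambled level, and limma gave an adjusted p of 0.9999. FOXP4 is GC-rich at 62.9%, and its log2 folds of -0.85 and -1.33 were -0.20 and -1.01 once the dependence of folds on GC content was removed. How far FOXP4 lay below the control with siRNA1 thus depends on that correction. Estimated depth was close, at about 18100000 reads with siRNA1 and 18700000 with siRNA2, against 17900000 with the scrambled siRNA. All 8 epithelial markers listed were above 0, at very different levels. EPCAM measured 1150.2 and 813 TPM, against 1136 TPM, and ERBB2 58.9 and 63.9 TPM, against 89.8 TPM. CDH1 was the lowest, at 5.86 and 11.6 TPM, against 4.16 TPM. Relative to the scrambled library the 8 markers differed widely, from 58.1% (KRT19) to 140.9% (CDH1) with siRNA1. With siRNA2 they ran from 71.2% (ERBB2) to 357% (CLDN4). Of 9 markers of other cell types in the table, 4 with siRNA1 and 4 with siRNA2, against 5 with the scrambled siRNA, were at 0. CD68, COL1A2 and DCN were at 0 in all 3, and apart from COL1A1 none passed 2.69 TPM. Mitochondrially encoded mRNAs took 8.05% of TPM with siRNA1 and 1.41% with siRNA2, against 5.15% with the scrambled siRNA. The median log2 fold over all 14429 genes was 0.03 with siRNA1 and -0.24 with siRNA2, so folds with siRNA2 are read against that lower middle. Median-of-ratios rescaling, which brings both medians close to 0, is given where it turned a direction.

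Most chaperones stayed within 2-fold of the scrambled library with either siRNA. HSPA1B, a stress-inducible HSP70, was the 1 member at least 2-fold lower with both. DNAJA1, HSPA8 and BAG1 of the HSP70 cycle were further below the scrambled library with siRNA2 than with siRNA1. DNAJB1, HSPA9, HSPA13 and HSPB8 were among those above it in both knockdown libraries. No member passed the test across all genes.

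In limma, with Benjamini-Hochberg adjustment over 14429 genes, 0 members and 0.0% of all genes were called at an adjusted p under 0.05, and every member had an adjusted p of 0.9999. Without adjustment, limma's p was under 0.05 for 428 genes, 2.97% of those tested, and for 1 member, HSPA1B. By size alone, on the log2(TPM + 1) scale, 0 members were at least 2-fold higher with both siRNAs and 1 was at least 2-fold lower. Among all genes tested these shares were 2.52% and 2.38%. Both folds share the 1 scrambled library.

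Taken singly, siRNA1 had 0 members at least 2-fold higher, where 5.27% of all genes were, and 2 at least 2-fold lower, where 6.0% were. Those below were HSPA1B and HSPB1. With siRNA2, HSPB8 was the 1 member at least 2-fold higher, against 6.88% of all genes. HSPA1B, DNAJA1, HSPA8 and BAG1 were the 4 at least 2-fold lower, which is 10.5% of the members against 13.2% of all genes. DNAJB1 and CCT3 lay just inside the limit with siRNA2. None of these shares with a single siRNA lay above that of all genes. Rescaling evened the numbers with siRNA2 to 3 at least 2-fold higher, HSPB8, DNAJB1 and HSPA9, and 3 at least 2-fold lower, with BAG1 no longer among them. Over all genes the rescaled shares were 9.71% higher and 8.05% lower.

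At any size, 25 members were above the scrambled library with siRNA1, where 51.8% of all genes were, and 13 were below it, where 47.9% were. With siRNA2, 10 members were above it, where 34.6% of all genes were, and 28 were below it, where 65.0% were. After rescaling, 24 members were above it with siRNA1, against 51.1% of all genes, and 14 below, against 48.5%. With siRNA2 the rescaled numbers were 20 above, against 50.2% of all genes, and 18 below, against 49.5%. The excess of members below the control with siRNA2 thus went with the scaling. The median over the 38 was 0.08 with siRNA1 and -0.25 with siRNA2, close to the medians of all genes. With the GC trend removed, the siRNA1 median was -0.07 over 37 members, against 0.01 over all genes with a GC value. The excess of members above the control with siRNA1 was thus absent after GC correction.

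**Figure D1:**
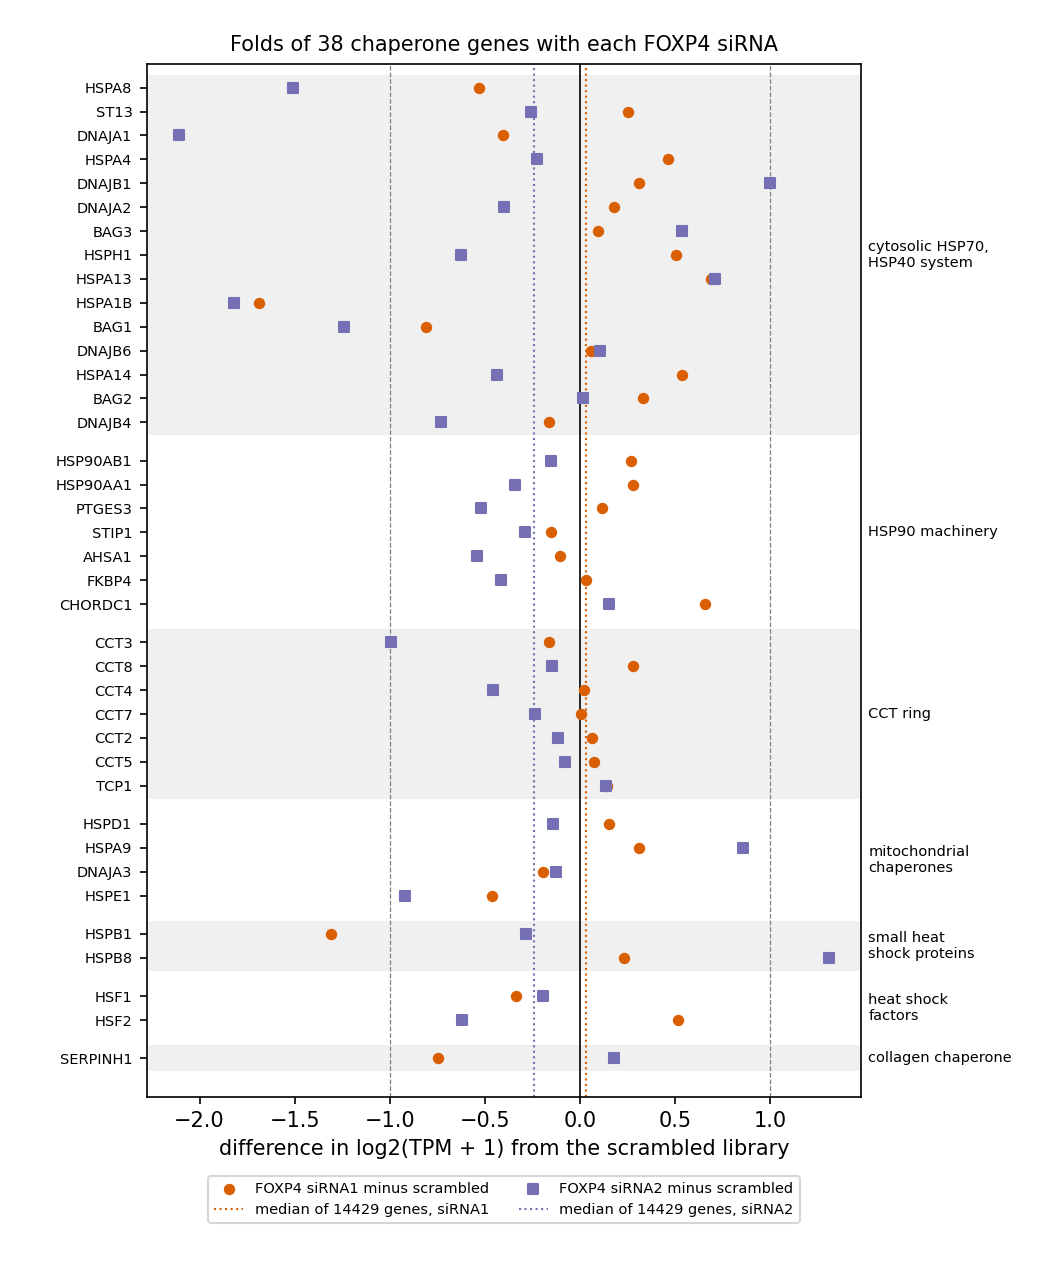
Difference in log2(TPM + 1) of each of 38 chaperone genes from the scrambled library, with siRNA1 (circles) and siRNA2 (squares), 1 library each, grouped by role. Dashed lines mark 2-fold and dotted lines the medians of all genes tested, and HSPA1B is the 1 gene with both points left of the 2-fold line.

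Promoters of the members were read for the heat shock element, since that element links these genes. The letters searched were GAANNTTC and TTCNNGAA, which read the same on both strands and can overlap each other. RefSeq promoter windows on GRCh38.p14, from 250 bases before to 50 after each start, were found for 34 members. FKBP4, HSF1, HSPA14 and ST13 were not among them. A match lay in 19 of these 34 members (55.9%) and in 13.6% of the 8977 genes tested that had a window. Among genes with a single window it was 43.5% of 23 members, against 9.66% of 6385 genes. Over all 35116 windows in the table it was 13.5%. A run of 3 alternating repeats was in 8 members (23.5%) and in 0.512% of the genes tested. The stretches shown are the 130 bases before a start, 5′ to 3′ along the gene, for 7 members that have a match there, picked to include HSPA1B and members on either side of the control. Capitals mark the matches.
HSPA1B (chr6:31827608-31827737, plus strand): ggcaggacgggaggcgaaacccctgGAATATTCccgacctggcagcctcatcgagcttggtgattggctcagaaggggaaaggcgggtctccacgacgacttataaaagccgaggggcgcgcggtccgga
HSPA8 (chr11:123062137-123062266, minus strand): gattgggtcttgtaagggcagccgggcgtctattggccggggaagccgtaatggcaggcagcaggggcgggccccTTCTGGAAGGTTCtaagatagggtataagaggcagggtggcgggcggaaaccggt
DNAJB1 (chr19:14518398-14518527, minus strand): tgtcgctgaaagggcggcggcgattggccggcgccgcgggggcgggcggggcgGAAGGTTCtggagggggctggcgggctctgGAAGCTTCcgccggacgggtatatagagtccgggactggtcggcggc
HSPB8 (chr12:119178801-119178930, plus strand): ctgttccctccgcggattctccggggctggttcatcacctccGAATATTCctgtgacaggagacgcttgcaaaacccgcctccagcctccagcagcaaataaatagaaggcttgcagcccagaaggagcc
HSP90AA1 (chr14:102087045-102087174, minus strand): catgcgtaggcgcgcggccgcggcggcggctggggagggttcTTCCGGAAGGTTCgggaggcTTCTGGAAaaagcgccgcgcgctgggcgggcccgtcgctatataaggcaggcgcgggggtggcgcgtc
CHORDC1 (chr11:90223050-90223179, minus strand): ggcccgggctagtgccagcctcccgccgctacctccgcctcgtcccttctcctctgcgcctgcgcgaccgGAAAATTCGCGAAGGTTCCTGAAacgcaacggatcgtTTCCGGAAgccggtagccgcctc
SERPINH1 (chr11:75562123-75562252, plus strand): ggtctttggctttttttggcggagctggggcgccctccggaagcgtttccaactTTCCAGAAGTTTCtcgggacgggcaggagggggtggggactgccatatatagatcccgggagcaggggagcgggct

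Members with a match lay on both sides of the control. HSPA1B, with 1 match beginning 105 bases before its start, had the lowest level relative to the scrambled library with siRNA1. HSPB8, with the same 8 letters beginning 88 bases before its start, had the highest with siRNA2. In the stretch shown CHORDC1 carries 5 overlapping or neighbouring matches and stood above the scrambled library, while HSPA8 carries 2 and stood below it. Further upstream HSPA8 has matches beginning 230 and 225 bases before its start, and CHORDC1 has a match at 205. The 19 members with a match had median log2 folds of 0.06 with siRNA1 and -0.14 with siRNA2, and ranged up to 1.31 and down to -2.11 with siRNA2. The 15 without a match had medians of 0.10 and -0.40. Below the control were 7 of the 19 with a match and 5 of the 15 without one with siRNA1, and 11 of the 19 and 13 of the 15 with siRNA2. The difference between these counts was not tested. With siRNA2, genes with matches thus held both the highest and the lowest member, and a match of letters says nothing on whether HSF1 was bound.

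Among the HSP70 proteins, HSPA1B was lowest relative to its control. It measured 17.4 TPM with siRNA1 and 15.8 TPM with siRNA2, against 58.3 TPM with the scrambled siRNA. Both knockdown libraries were far below the control, at 29.9% and 27.2% of its level. The log2 folds were -1.69 and -1.82, a mean of -1.75 ± 0.09 (SD, n = 2), with an adjusted p of 0.9999 in limma. That SD leaves out any variation of the control, which both folds share. Limma's standard error of the mean fold was 0.49, which draws on the spread of other genes besides that of HSPA1B. Once the dependence of folds on GC content was removed the folds were -1.25 and -1.51. HSPA1B (ENSG00000204388.6, chromosome 6, 31827735 to 31830255, plus strand, GRCh38) is a gene without introns and has a near copy, HSPA1A. Of the 75-base stretches of its transcript, 70.1% occur in HSPA1A too, so the authors' counting could split reads between them. HSPA1A measured 0.80 and 0.87 TPM, against 2.40 TPM. The pair together gave 18.2 and 16.7 TPM, against 60.7 TPM, so the sum was lower with both siRNAs as well. HSPA1B rested on about 199 and 184 reads, against 687, and counting error alone is about 0.12 on the log2 scale.

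HSPA8, the constitutive HSP70, was the most abundant HSP70 of the cytosol in the scrambled library. It measured 379 TPM with siRNA1 and 192 TPM with siRNA2, against 548 TPM with the scrambled siRNA, with log2 folds of -0.53 and -1.51. Its fold with siRNA2 was -1.23 after rescaling, still past 2-fold. HSPA13, an HSP70-like ATPase without a substrate-binding domain, measured 101 and 102 TPM, against 62.0 TPM, so both siRNAs gave nearly the same level above the control. Its transcript is poor in GC, at 34.9%, and with the GC trend removed its folds were 0.11 and 0.77. HSPA14, found at ribosomes, measured 39.3 and 19.6 TPM, against 26.9 TPM, and so lay on either side of the control.

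J-domain proteins differed among themselves. DNAJA1, a farnesylated partner of HSPA8, measured 205 TPM with siRNA1 and 62.5 TPM with siRNA2, against 272 TPM with the scrambled siRNA. Its fold of -2.11 with siRNA2 was the lowest of the 38, while that with siRNA1 was -0.41. The mean was -1.26 ± 1.20 (SD, n = 2), and the siRNAs differed from each other by -1.70 (siRNA2 minus siRNA1, log2), a gap larger than the size of the mean. DNAJB1, the inducible partner of HSP70 in heat shock, went the other way at 197 and 318 TPM, against 159 TPM. Its log2 folds were 0.31 and 0.9957, and the second became 1.27 after rescaling. The HSP70 DNAJB1 serves under stress, HSPA1B, lay below its control in the same libraries.

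DNAJA2 measured 106 and 70.9 TPM, against 93.7 TPM, and so stood above and below the control, though at -0.18 and -0.24, below it with both, with the GC trend removed. DNAJB6, a suppressor of protein aggregation, was nearly level in TPM at 37.2 and 38.5, against 35.7. Its log2 fold with siRNA2 was 0.38 after rescaling, and its folds were 0.31 and 0.40 with the GC trend removed. DNAJB4 was the least abundant member, at 6.56 and 4.11 TPM, against 7.47 TPM. It rested on about 112 and 72 reads, against 132, so counting error alone is 0.19 and 0.21 on the log2 scale.

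The factors that act on HSP70 did not move as a group. BAG1, an exchange factor that also binds the survival protein BCL2, measured 21.1 and 15.4 TPM, against 37.7 TPM, with log2 folds of -0.81 and -1.24. After rescaling its fold with siRNA2 was -0.97, so it no longer passed 2-fold. BAG3, the exchange factor of selective autophagy that works with HSPB8, measured 81.8 and 111 TPM, against 76.6 TPM. Both knockdown libraries were thus above the control for BAG3 and below it for BAG1. BAG2, an inhibitor of the ubiquitin ligase CHIP, measured 20.2 and 16.1 TPM, against 15.9 TPM.

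The larger exchange factors of the HSP110 family differed between siRNAs. HSPA4 measured 372 and 231 TPM, against 270.2 TPM, and HSPH1 measured 108 and 48.7 TPM, against 75.8 TPM. ST13, an adaptor that holds HSP70 in its ADP state, measured 406 and 285 TPM, against 341 TPM. All 3 were above the control with siRNA1 and below it with siRNA2. After rescaling, HSPA4 and ST13 stood at 0.05 and 0.02 with siRNA2 and HSPH1 at -0.36. With the GC trend removed ST13 was below the control with both, at -0.092 and -0.093. Of the ST13 transcript, 22.9% of 75-base stretches recur in 14 other genes, with ST13P6 sharing the largest part at 5.6%.

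**Figure D2:**
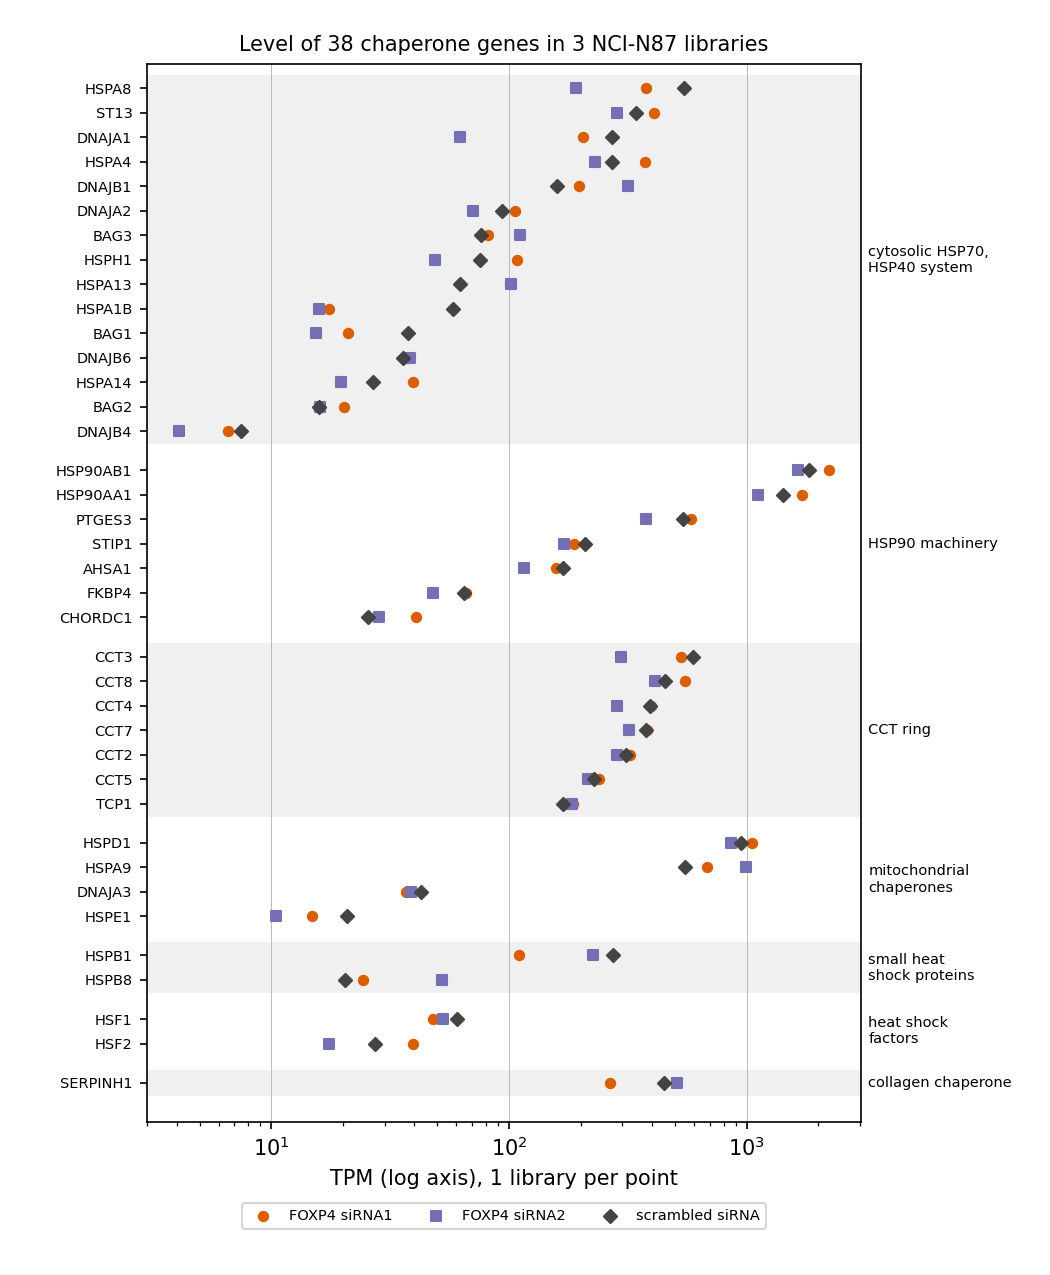
TPM of each of 38 chaperone genes on a log axis in the siRNA1 (circles), siRNA2 (squares) and scrambled (diamonds) libraries, 1 library per point, grouped by role and ordered by the scrambled level. HSP90AB1 is the highest in every library and DNAJB4 the lowest, and the points of DNAJA1 and HSPA1B lie furthest apart.

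The HSP90 genes were the most abundant of the family. HSP90AB1, the constitutive form, measured 2212 TPM with siRNA1 and 1652 TPM with siRNA2, against 1837 TPM with the scrambled siRNA, where it ranked 43 among the genes tested. HSP90AA1, the inducible form, measured 1715 and 1119 TPM, against 1417 TPM. The ratio of HSP90AA1 to HSP90AB1 was 0.776 and 0.678, against 0.771. That ratio, and which gene is higher, can depend on the gene length used. Merged exons are 5248 bases for HSP90AA1 and 2980 for HSP90AB1, and the longest coding transcripts 3510 and 2674. For both genes, siRNA1 stood above the control and siRNA2 below it, by log2 folds between -0.34 and 0.28. The siRNA2 fold of HSP90AB1 was 0.13 after rescaling and 0.08 with the GC trend removed.

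Cochaperones of HSP90 among the members were all within 2-fold of the control. STIP1, the adaptor to HSP70, measured 187 and 170.2 TPM, against 208 TPM. AHSA1, an activator of the HSP90 ATPase, measured 157 and 116 TPM, against 169 TPM. PTGES3 (p23), which holds HSP90 closed on its client, measured 585 and 376 TPM, against 540.4 TPM. These 3 were below the control with siRNA2, and PTGES3 was slightly above it with siRNA1. With the GC trend removed PTGES3 stood at -0.17 with siRNA1 and STIP1 at 0.12 and 0.01. FKBP4, a prolyl isomerase of steroid receptor complexes, measured 66.0 and 48.1 TPM, against 64.6 TPM. CHORDC1, a zinc-binding cochaperone, measured 40.7 and 28.4 TPM, against 25.4 TPM, and was the 1 gene of the HSP90 group above the control with siRNA2. The 7 genes had median log2 folds of 0.11 with siRNA1 and -0.34 with siRNA2, and the second was -0.06 after rescaling.

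Of the CCT subunits, TCP1, CCT2 and CCT5 lay closest to the control. The complex holds 8 different subunits, of which 7 were members and CCT6A stood on the list of other chaperones. TCP1 measured 186 TPM with siRNA1 and 185 TPM with siRNA2, against 168 TPM with the scrambled siRNA. CCT5 measured 240.2 and 216 TPM, against 228 TPM, and CCT2 324 and 286 TPM, against 310.2 TPM. These 3 subunits lay between 92.2% and 110.5% of the control in both knockdown libraries. CCT7 measured 379 and 321 TPM, against 378 TPM. CCT8 measured 551 and 411 TPM, against 455 TPM. CCT4 measured 396 and 284 TPM, against 391 TPM. The subunit furthest from its control was CCT3, at 528 and 297 TPM, against 593 TPM, a log2 fold of -0.99 with siRNA2. CCT6A was next, at 382 and 183 TPM, against 337 TPM.

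Over the 8 subunits the mean was 373 ± 126 TPM with siRNA1 and 273 ± 76.8 TPM with siRNA2, against 357 ± 132 TPM with the scrambled siRNA (SD over subunits, not replicates). The highest subunit was 2.97 times the lowest with siRNA1 and 2.25 times with siRNA2, against 3.52 times with the scrambled siRNA. CCT3 was highest in the scrambled library and CCT8 in both knockdown libraries. The 7 members had median log2 folds of 0.06 and -0.15. With siRNA2 the median became 0.13 after rescaling, so the direction of the ring with siRNA2 depends on the scaling. Rescaling turned CCT2, CCT5, CCT7 and CCT8 to 0.16, 0.20, 0.04 and 0.13 with siRNA2, and left CCT3 at -0.72. It moved TCP1 to 0.41 with siRNA2, then the furthest of the 7 members from the control after CCT3.

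**Figure D3:**
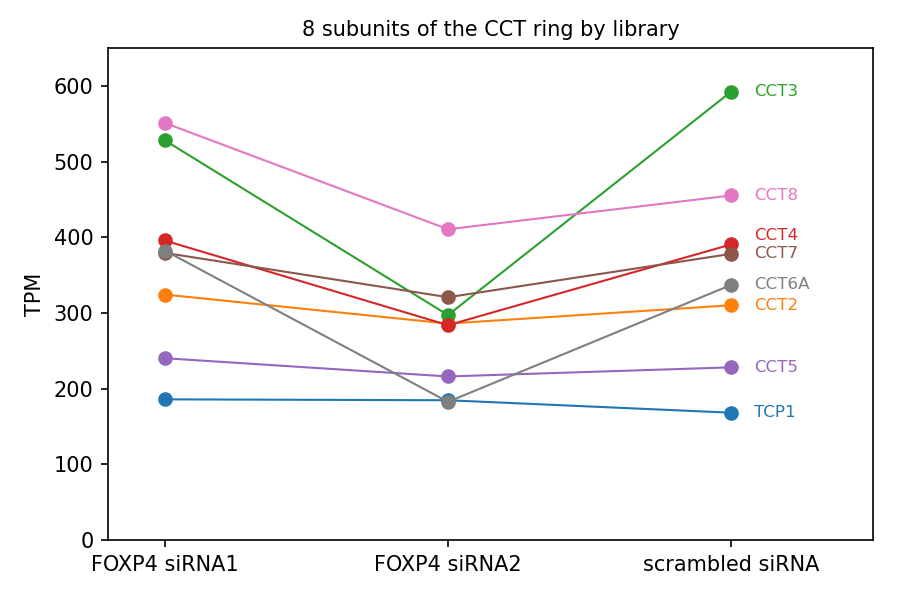
TPM of the 8 CCT subunits in the siRNA1, siRNA2 and scrambled libraries, 1 library per point, with a line joining each subunit. CCT3 is at 297 TPM with siRNA2, near CCT2 and CCT4, while TCP1 lies between 168 and 186 TPM.

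Mitochondrial chaperones did not follow one another. HSPA9 (mortalin), the HSP70 that pulls proteins into the matrix, measured 681 TPM with siRNA1 and 993 TPM with siRNA2, against 549 TPM with the scrambled siRNA. Its log2 folds were 0.31 and 0.85, and 0.05 and 1.04 with the GC trend removed. HSPD1, the matrix chaperonin, measured 1054 and 859 TPM, against 949 TPM, so the knockdown libraries lay on either side of the control. DNAJA3, the J-domain partner of HSPA9, measured 37.0 and 38.8 TPM, against 42.5 TPM. After rescaling HSPD1 and DNAJA3 stood at 0.13 and 0.14 with siRNA2, above the control. HSPA9 was thus higher with siRNA2, where mitochondrially encoded mRNAs were at 1.41% of TPM, against 5.15% in the scrambled library. It was also higher with siRNA1, where they were at 8.05%. Their part in the result was not tested.

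HSPE1, the lid of HSPD1, measured 14.8 and 10.5 TPM, against 20.7 TPM. HSPD1 was thereby 71.4 and 81.9 times HSPE1, against 45.7 times in the scrambled library, although the proteins form 1 complex. The HSPE1 level is uncertain, since 22.3% of its 75-base stretches recur in other genes, 13.6% in the readthrough gene HSPE1-MOB4, and it rested on about 132 and 95 reads, against 192. RefSeq places the starts of both genes head to head on chromosome 2, HSPD1 at 197500274 on the minus strand and HSPE1 at 197500379 on the plus strand. The 104 bases between these starts are shown because they lie upstream of both genes, and they hold 0 exact matches to the letters searched. Elements that depart from those letters were not searched for. The matches counted for HSPD1 lie 235 to 245 bases before another RefSeq start of it, at 197499840.
HSPD1-HSPE1 (chr2:197500275-197500378, plus strand, GRCh38.p14): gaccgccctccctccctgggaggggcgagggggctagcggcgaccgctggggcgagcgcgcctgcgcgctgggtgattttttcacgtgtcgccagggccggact

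The small heat shock proteins, which hold unfolded protein without ATP, went different ways. HSPB1 (HSP27) measured 110 TPM with siRNA1 and 225 TPM with siRNA2, against 274 TPM with the scrambled siRNA. It was low with siRNA1 alone, at a log2 fold of -1.31, against -0.28 with siRNA2. HSPB1 is GC-rich at 64.3%, and with the GC trend removed the folds were -0.58 and 0.04. HSPB8, the partner of BAG3, measured 24.3 and 52.1 TPM, against 20.5 TPM, with log2 folds of 0.23 and 1.31. HSPB8 was above its control in both knockdown libraries, mainly with siRNA2, and so was BAG3.

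HSF1, the main heat shock factor, measured 47.9 and 52.9 TPM, against 60.7 TPM. HSF2, a factor active in development, measured 39.5 and 17.4 TPM, against 27.4 TPM. HSF1 stood below the control with both siRNAs, though at 0.08 with siRNA2 after rescaling and at 0.41 and 0.13 with the GC trend removed. SERPINH1 (HSP47), the collagen chaperone of the endoplasmic reticulum and an HSF1 target, measured 267 TPM with siRNA1 and 509 TPM with siRNA2, against 449 TPM with the scrambled siRNA. COL1A1, the 1 marker of other cell types over 2.69 TPM, had the same order at 6.42 and 22.3 TPM, against 13.1 TPM. COL1A2 and DCN were at 0 in all 3 libraries, and the part of such cells in the SERPINH1 values was not tested. The epithelial markers KRT8, KRT18, KRT19 and MUC1 had the order of SERPINH1 as well, while EPCAM, CDH1, ERBB2 and CLDN4 did not.

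The knockdown libraries were also set against each other. HSPB8 and HSPB1 were at least 2-fold higher with siRNA2 than with siRNA1, by 1.07 and 1.03 on the log2 scale, where 5.99% of all genes were. DNAJA1, HSF2 and HSPH1 were at least 2-fold lower with siRNA2 than with siRNA1, by -1.70, -1.14 and -1.13, where 12.8% of all genes were. In all, 28 members were lower with siRNA2 than with siRNA1, or 73.7%, against 64.3% of all genes. All 7 HSP90 genes and all 7 CCT members were among them. After rescaling, 22 members were lower with siRNA2 than with siRNA1, against 49.3% of all genes. TCP1, CCT2, CCT5 and CCT7 of the CCT ring and STIP1 of the HSP90 group were then higher with siRNA2 than with siRNA1. With 1 library each there is no test of these differences, and the design cannot tell siRNA sequence from library.

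GC content went with the folds of siRNA1. Over 37 members with a GC value, Spearman's correlation of GC with the log2 fold was -0.62 with siRNA1 and 0.08 with siRNA2. Over 12302 genes tested it was -0.61 and -0.10. The points are genes that share libraries and are not replicates. HSPA13 and CHORDC1, near 35.0% GC, were the highest members with siRNA1, and HSPA1B and HSPB1, at 58.7% and 64.3%, were the lowest. Removing the GC trend changed the sign of 23 of 74 member folds, most of them small, among them those of TCP1, CCT2, CCT4 and CCT5 with siRNA1, which became -0.11, -0.091, -0.19 and -0.14.

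**Figure D4:**
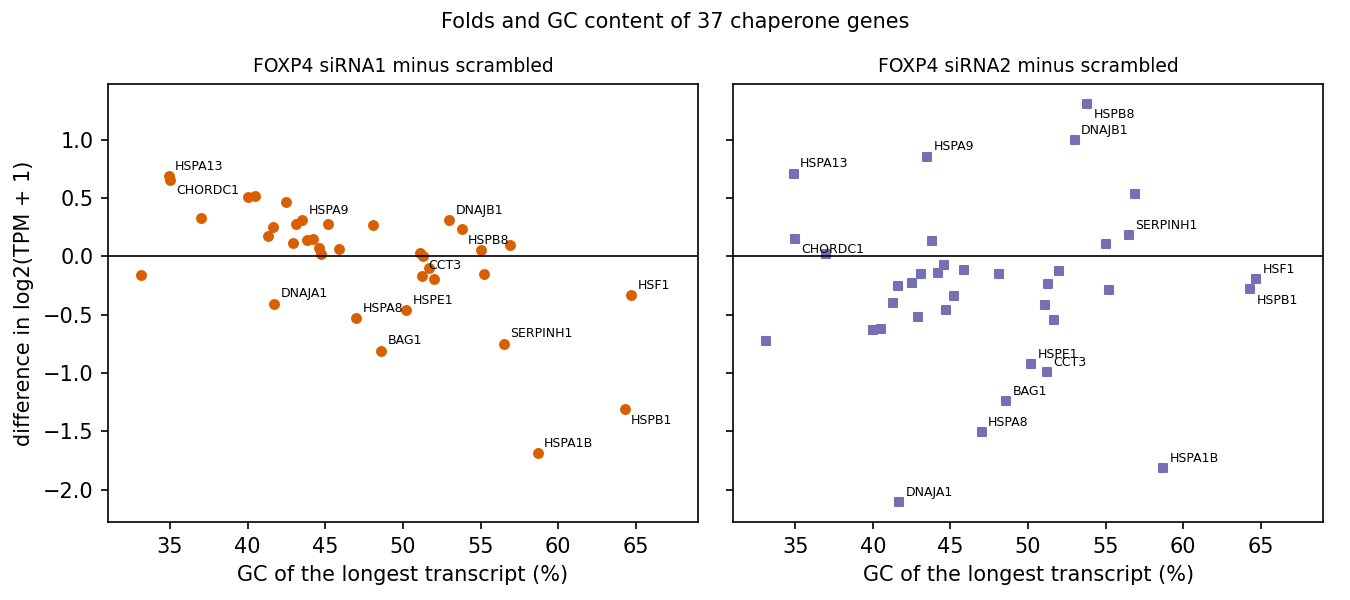
Difference in log2(TPM + 1) from the scrambled library against GC content of the longest transcript for 37 chaperone genes, with siRNA1 on the left and siRNA2 on the right, 1 gene per point. Points fall with GC content with siRNA1 (Spearman -0.62) and show no such slope with siRNA2 (0.08).

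A list of other chaperone genes was read by the same limits. Of 67 listed, 65 had a row and 54 were tested. In limma 0 passed, and 0 had an unadjusted p under 0.05. Their median log2 folds were -0.08 with siRNA1 and -0.28 with siRNA2. By size, HSPA2, an HSP70 best known from testis, was the 1 gene at least 2-fold lower with both, and 0 were at least 2-fold higher. It measured 3.34 and 2.99 TPM, against 8.79 TPM, and had the lowest mean fold of the 54. DNAJB14, a J-domain protein of the endoplasmic reticulum membrane, had the highest mean fold, at 35.8 and 23.2 TPM, against 14.6 TPM. Other HSP70 and HSP110 genes had medians of -0.55 and -0.89 over 5 tested, with 4 below the control with siRNA1, where 47.9% of all genes were, and 5 with siRNA2, where 65.0% were. After rescaling HSPA4L stood at 0.12 with siRNA2, which left 4 below. Apart from HSPA4L these genes were scarce, with none above 8.79 TPM in any library. HSPA1A, the near copy of HSPA1B, rested on about 9 and 10 reads, against 28. The medians of other HSP70 and HSP110 genes were the lowest of any class on this list. Other J-domain genes were the only class with both medians above the control, at 0.04 and 0.11 over 11 tested.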

How the data were processed

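The authors deposited 1 table of TPM with 1 column per library. GRCh38 is the build named by the submitters' processing notes. Which tool and annotation produced the values, and whether strand was used, is not given in the sources used here. The columns summed to 998717 TPM for siRNA1, 998406 for siRNA2 and 998273 for the scrambled siRNA. Because TPM has a fixed total, an increase in abundant transcripts lowers all others.

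Members and lists were chosen with earlier results of these data known. Comparisons used log2(TPM + 1) for genes averaging 1 TPM or more, a scale that understates the folds of low genes. The test was limma (version 3.58.1, R version 4.3.3) with a trend on mean level and Benjamini-Hochberg adjustment, which compared both knockdown libraries with the scrambled library. It has 1 residual degree of freedom, from the spread between siRNAs, and the lone control was assumed to vary like them. The variance of each gene is drawn toward the trend over all genes. The code of the test was tried on simulated data. SD values are over the siRNAs. Named genes were all members, FOXP4, and of the other chaperones those at least 2-fold the same way with both siRNAs, with the highest and lowest mean fold. HSPA1A, CCT6A, COL1A1 and other markers were named for results that turn on them.

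GENCODE 29 (GRCh38) gave exon lengths, positions and GC content, with 22180 rows matched through their symbol. HSPA14 had no unique match. Reads were estimated from the step that 1 read makes in TPM times exon length. With this step, 92.6%, 93.0% and 92.8% of low values were whole to within 0.1 read with siRNA1, siRNA2 and the scrambled siRNA. The GC trend was a lowess curve of each siRNA's folds on GC, fitted where the mean reached 10 TPM. Counting errors cover counting only.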

Additional observations from a re-analysis of the deposited data

How the results depend on the processing

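HSPA1B was at least 2-fold lower with both siRNAs under 3 pseudocounts, 3 filters, 3 other scalings and GC correction, and 0 members were at least 2-fold higher under these. Taking each siRNA alone gave 2 to 4 members lower and 0 to 1 higher, or 3 lower and 3 higher with siRNA2 after rescaling. Limma called 0 members under every setting run, while over all genes it called 1677 without a filter, 93 at a mean of at least 10 TPM, 9 without mitochondrially encoded genes and 0 under the others. The cause was not tested. Some class medians changed by more than the SD between the siRNAs, all of them of the CCT ring or the mitochondrial chaperones. With median-of-ratios rescaling their siRNA2 medians were 0.13 and 0.14, and with the GC trend removed 0.036 and 0.10, against -0.15 and -0.14 as reported. The siRNA1 median of the CCT ring was -0.091 with the GC trend removed, and quantile normalization gave -0.30 for its siRNA2 median. Within that SD, the HSP70 and HSP40 median with siRNA1 still changed sign, to -0.13 with the GC trend removed against 0.18 as reported, and the HSP90 median with siRNA2 was -0.06 with rescaling against -0.34. No paired analysis was possible because the siRNAs are different reagents and there was 1 scrambled library. Of the 76 member folds, 11 changed sign with rescaling and, of 74, 23 with the GC trend removed. The lone control and counting limit what small differences show.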
